A study of Mus musculus with 12 samples.

Results

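The desaturases and elongases of polyunsaturated fatty acids were taken as 9 genes by their symbols: Fads1, Fads2, Fads3, Fads6, Elovl1, Elovl2, Elovl3, Elovl5 and Elovl7. They were 9 of the 25611 genes counted in each mouse, and all 9 were among the 13190 genes that passed the filter on low counts. Expression was measured by RNA-sequencing of poly(A)-enriched RNA from whole livers of 12 male C57BL6J mice aged 8 to 10 weeks, 4 in each of 3 groups. Sham mice had an abdominal incision alone, and CLP mice had their cecum ligated and punctured, which releases gut bacteria and causes sepsis. CLP+DCA mice were in addition given 25 mg/kg of dichloroacetate (DCA), an inhibitor of the pyruvate dehydrogenase kinases, intraperitoneally at 24 hr. All livers were collected 30 hr post-surgery, 6 hr after the injection, and the labels do not name what sham and CLP mice were injected with.

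Mammals cannot make linoleic and alpha-linolenic acid, and the liver is a main site where these dietary fatty acids are turned into longer and more unsaturated ones such as arachidonic and docosahexaenoic acid. In the endoplasmic reticulum the desaturase encoded by Fads2 inserts the first double bond, the elongase encoded by Elovl5 lengthens the chain, the desaturase encoded by Fads1 inserts a further double bond, and the elongase encoded by Elovl2 carries the chain on towards docosahexaenoic acid. The other members stand apart from this route: Fads3 has been described as a desaturase of sphingoid bases, and Elovl1, Elovl3 and Elovl7 act mainly on saturated and monounsaturated fatty acids.

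The depth ranged from 24436513 to 44266819 reads on genes, and each mouse is 1 replicate. Values are given as CPM, the counts scaled to the normalized library size of each mouse. The libraries carry no molecular identifiers, so counting error is only a lower limit of the technical error. The 32 genes of an acute phase protein list took 11.4% to 12.9% of the reads in sham, 21.4% to 36.4% in CLP and 15.4% to 35.7% in CLP+DCA. CLP+DCA replicate 3 stood apart from its group: acute phase genes took 35.7% of its reads and at most 19.96% in the other 3 mice, and 10 neutrophil markers summed to 55.5 CPM against at most 11.0 CPM, with 0 to 3 of them at 0 in each of the 12 mice. Of 10 hepatocyte markers, 9 were in the table, none was at 0, and Alb averaged 46672 CPM in sham, whereas Ass1 was near 0 (0.689 CPM). Why Ass1 was so low was not determined.

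In sham livers the 4 enzymes of the route from linoleic and alpha-linolenic acid to longer polyunsaturated fatty acids had abundant transcripts. Levels are compared here as CPM per kilobase of exon (CPM per kb), with exon lengths from GENCODE. GENCODE extends Fads6 and Fads2 further at the 3′ end (to 115279622 and 10062765) than the genes as counted (115283366 and 10064164). Where that stretch is exon, their values per kb are too low. The size of this was not determined, so the places of Fads6 and Fads2 in the order are uncertain. Fads1 was at 154 ± 13.8 CPM per kb (SD, n = 4) and Elovl2 at 148 ± 18.6, and the ranges of these highest members overlapped. Fads2 followed at 82.8 ± 2.96 CPM per kb and Elovl5 at 72.2 ± 3.38, and here the ranges did not overlap. Elovl1 (21.2 ± 1.26 CPM per kb) and Elovl3 (18.2 ± 8.30) overlapped each other and lay below all of these. On this scale Fads6 (6.85 ± 1.28 CPM per kb), Fads3 (2.53 ± 0.356) and Elovl7 (0.0652 ± 0.0293) were lowest, each without overlap with the next. Elovl7 was close to the floor, with 5 to 31 reads per mouse, whereas every other member had at least 91 reads in every mouse.

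The first comparison, CLP versus sham, addressed how sepsis alters hepatic transcription. Of the 9 members, 5 were lower in all 4 CLP mice than in any sham mouse: Fads1, Fads2, Fads3, Elovl2 and Elovl5. They include the 4 enzymes of the route described above, and their means in CLP were 43.4% (Fads2) to 63.1% (Elovl5) of the sham means. Of these, Fads3 and Elovl5 passed the test across all genes (edgeR's quasi-likelihood test, Benjamini-Hochberg adjusted p under 0.05), and Fads1, Fads2 and Elovl2 did not. The other members, Fads6, Elovl1, Elovl3 and Elovl7, overlapped between the groups, and none passed the test.

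In numbers, 2 of 9 members were called lower, where 1.14% of all genes tested were, and 5 of 9 were lower without overlap, where 14.2% of all genes were. An unadjusted p under 0.05 was reached by the same 5, and by 3772 of the 13190 genes tested. The median log2 fold change of the 9 members was -0.66, and that of all genes tested was 0.018. With DESeq2 on the 8 mice compared, the same 5 members were called lower, where 11.5% of genes were. The number called by edgeR depended on mice outside the comparison, which share its estimate of the spread: without CLP+DCA replicate 3 it was 5 members, where again 11.5% of genes were called lower. It was 1 without CLP+DCA replicate 1 or 2, and 0 without any 1 sham mouse or CLP replicate 1, 2 or 4. In bulk livers, fewer hepatocytes and less RNA per hepatocyte cannot be told apart. All 9 hepatocyte markers measured, among them Ass1 with its level near 0, were lower in CLP (median log2 fold change -0.62, 1 called). Their summed level was 68105 to 86415 CPM in sham and 29915 to 49549 CPM in CLP, and the part of this in the results on the members was not tested. Summed neutrophil markers were at 4.91 to 6.21 CPM in sham and 27.9 to 39.97 CPM in CLP. Of 8 tested, 7 were higher and Ly6g was lower (log2 fold change -0.78). Endothelial markers were at 154 to 204 and 208 to 259 CPM, with 8 of 10 higher. Stellate cell and cholangiocyte markers were at 75.4 to 115 and 131 to 406 CPM, with 9 of 10 higher and the 406 CPM in CLP replicate 3. Within this list Des varied widely in CLP, at 45.7 ± 84.2 CPM against 2.15 ± 0.407 CPM in sham (SD, n = 4 each). Lymphocyte markers were at 2.65 to 5.41 and 0.670 to 2.15 CPM, with all 4 tested lower. The part of these lists was not tested either.

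**Figure D1:**
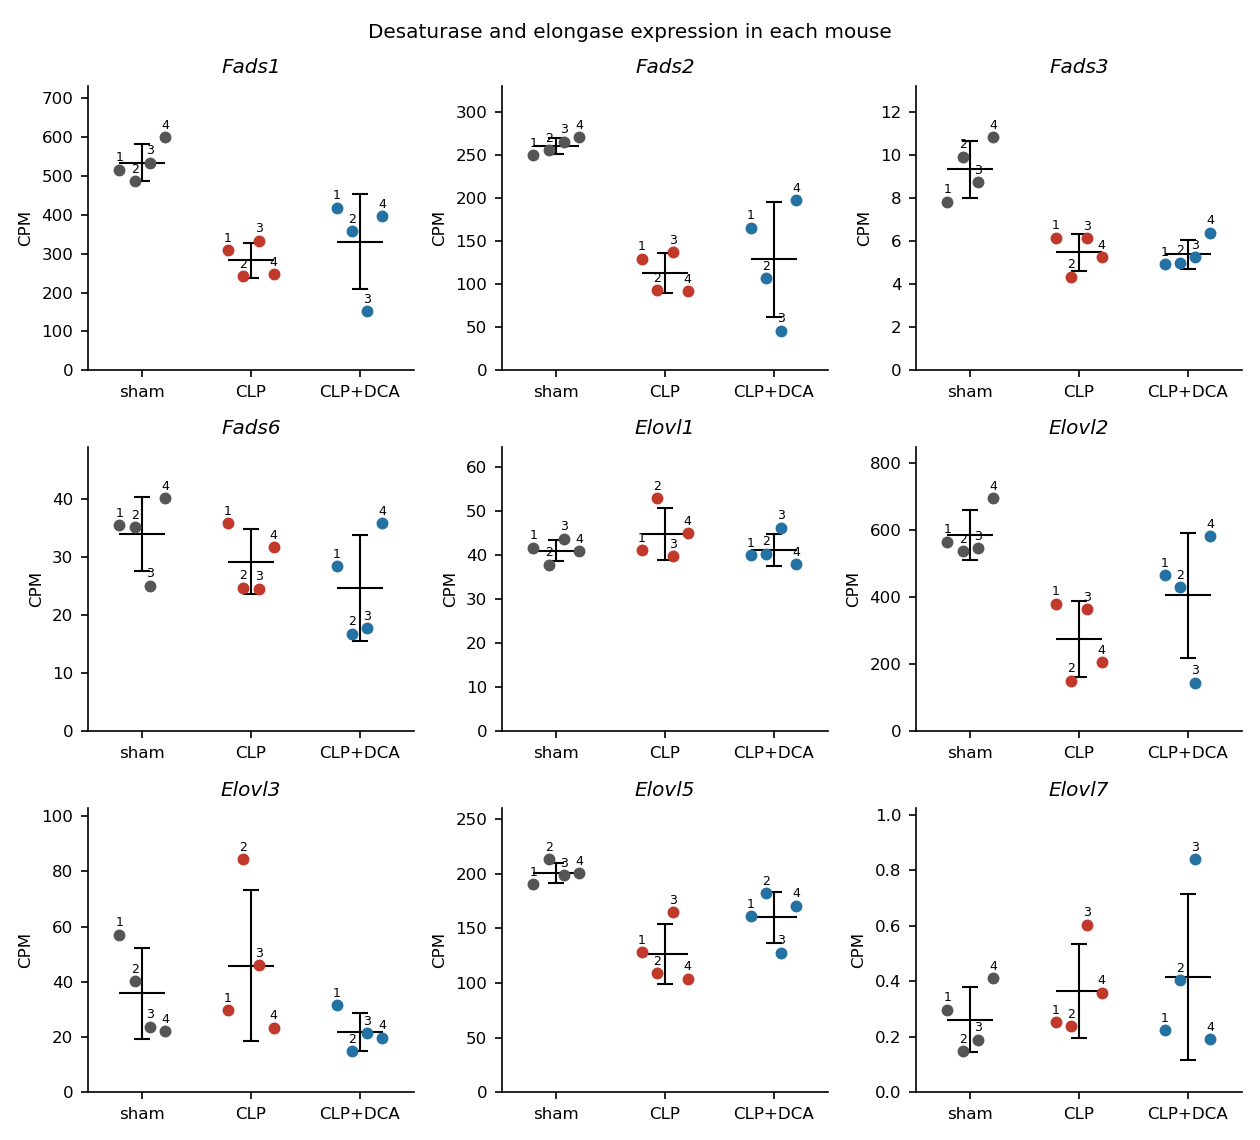
CPM of each of the 9 members (y axes, from 0) in sham, CLP and CLP+DCA mice (x axes). Points are mice with their replicate number, and bars are the mean ± SD of 4 mice; Fads1, Fads2, Fads3, Elovl2 and Elovl5 lie below all sham mice in all CLP mice.

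Fads2 (NCBI Gene 56473, chromosome 19 from 10064164 to 10101503 in mm10, - strand), the entry enzyme of the route, had the lowest CLP level relative to sham. Sham replicates 1 to 4 were at 251, 256, 266 and 271 CPM, and CLP replicates 1 to 4 at 130.0, 93.5, 137 and 92.5 CPM. The sham mice spanned only 1.08-fold and the CLP mice 1.48-fold, and the highest CLP mouse was far below the lowest sham mouse. The log2 fold change was -1.20 (standard error 0.34, edgeR's adjusted p = 0.0696).

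Fads1 (NCBI Gene 76267, chromosome 19 from 10182888 to 10196872, + strand), which makes arachidonic acid from its direct precursor, was at 516, 485, 533 and 599 CPM in sham replicates 1 to 4. The CLP mice were at 309, 241, 333 and 247 CPM, without overlap. The log2 fold change was -0.92 (standard error 0.26, edgeR's adjusted p = 0.0695). The gene contains Mir6993, on which 0 to 8 reads per mouse were counted.

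Fads3 (NCBI Gene 60527, chromosome 19 from 10041548 to 10059671, + strand) lies beside Fads1 and Fads2 but was far less abundant. Its sham values were 7.85, 9.93, 8.74 and 10.8 CPM and its CLP values 6.18, 4.36, 6.14 and 5.25 CPM. Fads3 fell by 0.76 on the log2 scale (standard error 0.15, edgeR's adjusted p = 0.0325), and no CLP mouse reached the lowest sham mouse. The call was lost, with adjusted p up to 0.0953, when any 1 sham mouse or CLP replicate 1, 2 or 4 was left out, while the log2 fold change stayed between -0.84 and -0.67.

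Elovl5 (NCBI Gene 68801, chromosome 9 from 77917365 to 77984519, + strand), which elongates the products of the first desaturation, was tightly grouped in sham at 191, 213, 199 and 200.4 CPM. In CLP it was at 129, 109, 165 and 104 CPM. Elovl5 fell by 0.66 on the log2 scale (standard error 0.15, edgeR's adjusted p = 0.0475), and CLP replicate 3 was the mouse nearest to sham. This call too was lost without any 1 sham mouse, CLP replicate 1, 2 or 4, or CLP+DCA replicate 1 or 2 (adjusted p up to 0.135), with log2 fold changes of -0.82 to -0.58 over the 12 fits that left out 1 mouse.

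Elovl2 (NCBI Gene 54326, chromosome 13 from 41182382 to 41220403, - strand), needed for the last elongations towards docosahexaenoic acid, was at 565, 537, 547 and 695 CPM in sham. The CLP mice fell into a higher pair, replicates 1 and 3 at 380 and 365 CPM, and a lower pair, replicates 2 and 4 at 152 and 207 CPM. All 4 were below all sham mice, and the log2 fold change was -1.09 (standard error 0.39, edgeR's adjusted p = 0.103). The coefficient of variation was 41.4% in CLP and 12.6% in sham.

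The same split of the CLP mice was seen in all 5 of these members, with replicates 2 and 4 below replicates 1 and 3 in each. The libraries as a whole split likewise. Over all genes tested, chi-square per degree of freedom was 32.9 between replicates 2 and 4 and 75.8 between 1 and 3. Across these pairs it was 126 to 311. The statistic was taken on raw counts and grows with depth, which was higher in replicates 1 and 3. The values of 32.9 and 75.8 are thus not on the same scale. The share of all genes with this split was not determined, so it is not shown to be particular to the members. In replicates 2 and 4, acute phase genes took 36.4% and 33.5% of the reads, and in replicates 1 and 3 they took 24.98% and 21.4%. Hepatocyte markers summed to 29915 and 40164 CPM in replicates 2 and 4, and to 48226 and 49549 CPM in replicates 1 and 3. The depth moved with it as well, at 24436513 and 25683615 reads in replicates 2 and 4, and 44266819 and 39686029 reads in replicates 1 and 3. The part of these differences in the members' values was not tested.

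**Figure D2:**
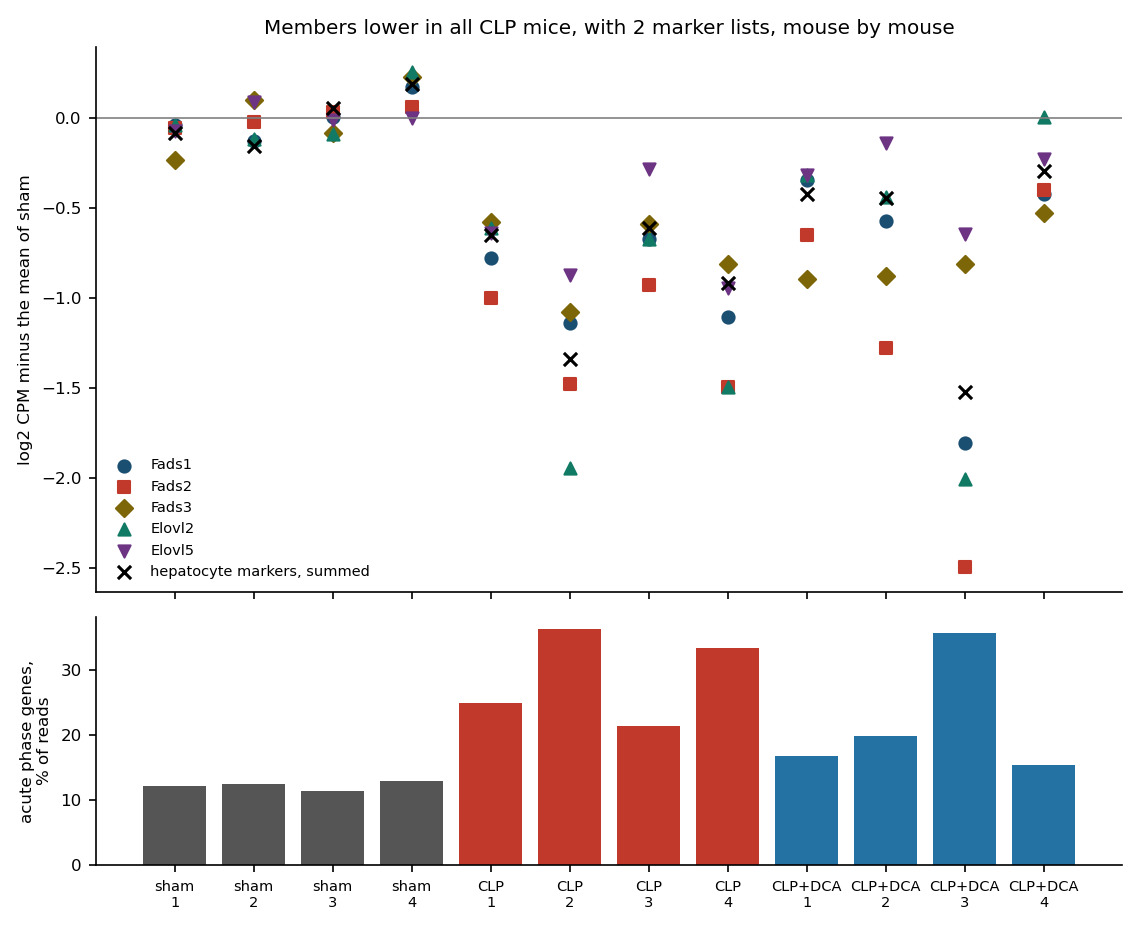
Upper panel: log2 CPM minus the mean of sham (y axis) of the 5 members lower in all CLP mice, and of 9 summed hepatocyte markers, in each of the 12 mice (x axis). Lower panel: percent of reads on 32 acute phase genes in the same mice; CLP replicates 2 and 4 and CLP+DCA replicate 3, with 33.5% to 36.4%, also have the lowest Fads1, Fads2 and Elovl2 values.

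Promoter sequences are shown for the members that were low in the same mice, for the 4 of them that matched an entry of the RefSeq promoter table (GRCm38.p6, 250 bases before to 50 bases after the annotated start). Of the 9 members, 7 matched by symbol, and Fads1 and Elovl3 did not. Each sequence is written 5′ to 3′ on the strand of its gene, with capitals for any of the 7 motifs searched on both strands. For Elovl2, which had 2 entries, the window at the start of the gene as counted is shown. The positions are chr19:10101454-10101753 for Fads2 (- strand), chr19:10041298-10041597 for Fads3 (+ strand), chr13:41220354-41220653 for Elovl2 (- strand) and chr9:77917115-77917414 for Elovl5 (+ strand).
Fads2: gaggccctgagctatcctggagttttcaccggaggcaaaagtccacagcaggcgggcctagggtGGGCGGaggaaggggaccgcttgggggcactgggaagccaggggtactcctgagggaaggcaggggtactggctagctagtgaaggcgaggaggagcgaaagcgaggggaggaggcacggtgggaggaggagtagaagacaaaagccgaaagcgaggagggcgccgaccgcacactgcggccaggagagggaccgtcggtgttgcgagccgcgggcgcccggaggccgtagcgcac
Fads3: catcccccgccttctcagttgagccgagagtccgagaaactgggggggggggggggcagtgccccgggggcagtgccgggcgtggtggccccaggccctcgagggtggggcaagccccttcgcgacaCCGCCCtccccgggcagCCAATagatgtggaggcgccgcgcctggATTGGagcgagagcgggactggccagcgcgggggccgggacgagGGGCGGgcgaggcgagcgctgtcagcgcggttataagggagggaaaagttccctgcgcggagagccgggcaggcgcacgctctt
Elovl2: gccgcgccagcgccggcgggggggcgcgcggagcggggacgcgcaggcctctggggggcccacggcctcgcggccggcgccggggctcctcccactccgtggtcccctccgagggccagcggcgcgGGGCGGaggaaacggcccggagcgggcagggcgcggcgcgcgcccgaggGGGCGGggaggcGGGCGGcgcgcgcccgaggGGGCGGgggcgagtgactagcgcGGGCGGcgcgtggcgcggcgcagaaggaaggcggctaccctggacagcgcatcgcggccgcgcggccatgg
Elovl5: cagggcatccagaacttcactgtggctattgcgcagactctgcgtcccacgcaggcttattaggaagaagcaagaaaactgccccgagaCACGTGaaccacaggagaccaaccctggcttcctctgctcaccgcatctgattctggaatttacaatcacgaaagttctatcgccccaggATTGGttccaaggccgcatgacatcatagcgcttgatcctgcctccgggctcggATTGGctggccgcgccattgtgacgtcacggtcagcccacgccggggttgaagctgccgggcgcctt

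The share of G and C in these windows was 67.0% in Fads2, 73.0% in Fads3, 84.7% in Elovl2 and 57.7% in Elovl5. Over all 32851 promoters of this length the median was 52.7% and the quartiles were 45.7% and 61.7%. Elovl5 lay between these quartiles and the other windows shown lay above them. The GC box GGGCGG, found in 35.7% of all promoters, occurred once in Fads2, at 2 places in Fads3 and at 5 places in Elovl2, but not in Elovl5. The CCAAT box, found in 37.4% of all promoters, occurred at 2 places each in Fads3 and Elovl5. The E-box CACGTG was found in Elovl5 alone among the members, 161 bases before the start, and in 7.15% of all promoters. The sterol regulatory element-like TCACNCCAC (1.24% of all promoters), the C/EBP motif TTGCNNAA (10.8%) and a direct repeat of AGGNCA with 4 bases between (0.253%) were in no window of the 7 members. A direct repeat of AGGNCA with 1 base between (0.381%) was found in 1 of the windows of Elovl1 only. In the 4 sequences shown, no match overlapped another, and a match describes letters in the window, not binding.

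The groups of the other 4 members overlapped. Fads6 (NCBI Gene 328035, chromosome 11 from 115283366 to 115297546, - strand) ranged from 25.01 to 40.1 CPM in sham and from 24.5 to 35.8 CPM in CLP, with a log2 fold change of -0.22 (standard error 0.24, edgeR's adjusted p = 0.561). Elovl1 (NCBI Gene 54325, chromosome 4 from 118428093 to 118432952, + strand), which makes very long saturated chains for sphingolipids, was at 41.7, 37.9, 43.8 and 41.0 CPM in sham and 41.2, 53.0, 39.8 and 45.1 CPM in CLP. Its log2 fold change was 0.12 (standard error 0.10, edgeR's adjusted p = 0.419). Under library size alone, in place of TMM factors, the sign turned (-0.06), and so did that of the median over all genes (from 0.018 to -0.15; in CLP+DCA versus CLP this median went from 0.0082 to 0.12). The 3′ end of Elovl1 overlaps Cdc20 on the opposite strand, on which 2 to 15 reads per mouse were counted, and the library kit does not mark strand.

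Elovl3 (NCBI Gene 12686, chromosome 19 from 46131899 to 46135694, + strand), an elongase of saturated and monounsaturated chains, had the widest spread of all 9 members within sham and within CLP (coefficient of variation 45.7% and 59.6%). Its sham values were 57.1, 40.4, 23.8 and 22.2 CPM and its CLP values 29.9, 84.4, 46.1 and 23.4 CPM. The highest of all 12 mice was thus CLP replicate 2, without which the log2 fold change of 0.36 (standard error 0.42, edgeR's adjusted p = 0.577) became -0.11. Its 3′ end overlaps Pitx3 on the opposite strand, which had 0 to 24 reads per mouse. Elovl7 (NCBI Gene 74559, chromosome 13 from 108214404 to 108287107, + strand) was at 0.149 to 0.410 CPM in sham and 0.239 to 0.604 CPM in CLP (log2 fold change 0.51, standard error 0.53, edgeR's adjusted p = 0.532), and a change was not detectable at this depth.

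Whether members moved by different amounts was compared with 3 ratios within each mouse, which do not depend on library size. The log2 ratio of Fads2 to Fads1 CPM was -1.04, -0.92, -1.003 and -1.14 in sham replicates 1 to 4 and -1.25, -1.37, -1.28 and -1.42 in CLP replicates 1 to 4. Fads2 was thus lower relative to Fads1 in every CLP mouse than in any sham mouse, by 0.30 on the log2 scale (p = 0.0286 by a two-sided exact permutation test, which groups of 4 cannot go below, and p = 0.0429 adjusted over the 3 ratios). The log2 ratio of Fads3 to Fads2 was higher in every CLP mouse (-4.47 to -4.12) than in any sham mouse (-4.99 to -4.64), with a difference of 0.46 (exact permutation test, p = 0.0286, adjusted p = 0.0429). Without CLP replicate 4 that difference was 0.39 (exact permutation test, p = 0.0571). The log2 ratio of Elovl2 to Elovl5 overlapped, at 1.33 to 1.79 in sham and 0.47 to 1.56 in CLP, with a difference of -0.50 (exact permutation test, p = 0.0857). In CLP+DCA the 3 ratios spread over -1.73 to -1.002, -5.05 to -3.12 and 0.18 to 1.77.

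**Figure D3:**
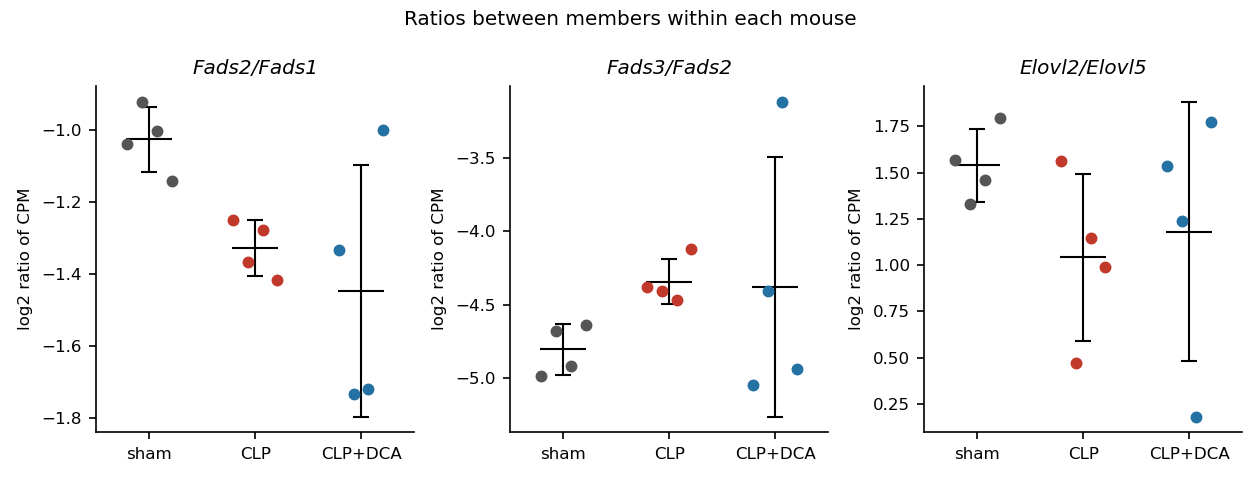
Log2 ratio of the CPM of 2 members within each mouse (y axes) for Fads2/Fads1, Fads3/Fads2 and Elovl2/Elovl5, by group (x axes). Points are mice, replicates 1 to 4 from left to right, and bars are the mean ± SD of 4 mice; sham and CLP are separate for the Fads2/Fads1 and Fads3/Fads2 ratios and overlap for Elovl2/Elovl5.

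Within the desaturases, Fads2 made up 33.7% of the summed CPM per kb in sham (31.9% to 35.1%) and 28.6% in CLP (27.1% to 29.8%). Elovl2 made up 56.8% of the elongase CPM per kb in sham (53.7% to 62.6%) and 42.1% in CLP, over a wide range of 25.9% to 53.7%. Elovl1 made up 8.19% of it in sham (7.56% to 9.24%) and 14.9% in CLP (10.5% to 18.6%). These shares restate the levels above on a common scale, rest on the same exon lengths with their limit for Fads2 and Fads6, and were not tested separately.

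The remaining difference from sham in septic mice given DCA was the question of CLP+DCA versus sham, which shares its sham mice with the comparison above. Fads1, Fads2, Fads3 and Elovl5 were below every sham mouse in all 4 CLP+DCA mice, 4 of 9 members where 4.97% of all genes were lower without overlap. No member was called by edgeR, where 0.00758% of genes were called lower and 0.0303% higher, while 3 members, and 1714 of the 13190 genes, had an unadjusted p under 0.05. DESeq2 on the 8 mice called 1 member lower, Fads3, where 0.468% of genes were. The median log2 fold change of the 9 members was -0.53, and that of all genes tested was 0.014.

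Fads3 was the steadiest of these, with 4.95, 5.01, 5.25 and 6.39 CPM in CLP+DCA replicates 1 to 4. Its log2 fold change from sham was -0.79 (standard error 0.15, edgeR's adjusted p = 0.123; DESeq2 adjusted p = 0.00079). The mean was 57.8% of sham in CLP+DCA and 58.7% of sham in CLP. Elovl5 was at 161, 182, 128 and 171 CPM, each below the lowest sham mouse of 191 CPM, at a log2 fold change of -0.32 (standard error 0.15, edgeR's adjusted p = 0.397).

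Fads1 was at 418, 357, 152 and 396 CPM in CLP+DCA replicates 1 to 4, with a log2 fold change from sham of -0.69 (standard error 0.26, edgeR's adjusted p = 0.319). Fads2 was at 166, 107, 46.2 and 198 CPM, with a log2 fold change of -1.01 (standard error 0.34, edgeR's adjusted p = 0.296). Elovl2 was at 467, 429, 145 and 583 CPM and overlapped sham, since replicate 4 was above the lowest sham mice (log2 fold change -0.53, standard error 0.38, edgeR's adjusted p = 0.547). In all of these, replicate 3 was the lowest of all 12 mice.

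Replicate 3 was at 28.5% of the sham mean for Fads1, 17.7% for Fads2 and 24.7% for Elovl2. The other 3 CLP+DCA mice were at 73.2%, 60.2% and 84.1% on average. Hepatocyte markers summed to 26396 CPM in replicate 3 and to 55575 to 61825 CPM in the other 3, and the part of this was not tested. For Fads3 the same mouse was not the lowest of its group (5.25 CPM, with replicate 1 at 4.95 CPM), at 56.3% of sham against 58.4% on average in the other 3. Without it, no member was called in CLP+DCA versus sham by edgeR, and DESeq2 called 3 lower, Fads1, Fads2 and Fads3, where 2.08% of genes were. The DESeq2 fit without this mouse was added after values were seen.

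Among the other members in CLP+DCA, Fads6 was at 28.4, 16.8, 17.8 and 35.8 CPM and Elovl3 at 31.5, 14.8, 21.5 and 19.85 CPM. Both overlapped sham, at log2 fold changes of -0.46 (standard error 0.24) and -0.71 (standard error 0.42), with edgeR's adjusted p of 0.430 and 0.472. Elovl1 was at 38.0 to 46.3 CPM, with a log2 fold change from sham of 0.0033 (standard error 0.10). Elovl7 was at 0.191 to 0.840 CPM.

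The effect of DCA in septic mice was the question of CLP+DCA versus CLP, which shares mice with both comparisons above. No group of any member was separate, where 2.05% of all genes were lower and 2.32% higher without overlap. No member was called by edgeR, where 0% of genes were called lower and 0.00758% higher, nor by DESeq2 on the 8 mice, where 0.295% were lower and 0.31% higher. By edgeR 2 members, Elovl3 and Elovl5, had an unadjusted p under 0.05, as had 1319 of the 13190 genes. The median log2 fold change of the 9 members was 0.17, and that of all genes tested was 0.0082.

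Elovl5 was 0.34 higher on the log2 scale (standard error 0.15, edgeR's adjusted p = 0.497), and it overlapped through CLP replicate 3 (165 CPM) and CLP+DCA replicate 3 (128 CPM). Elovl2 was at 0.56 (standard error 0.38), Fads1 at 0.23 (standard error 0.26) and Fads2 at 0.19 (standard error 0.34), with edgeR's adjusted p of 0.662 to 0.879. Fads3, at -0.03 (standard error 0.15), lay on the CLP level. Without CLP+DCA replicate 3, the log2 fold changes by edgeR were 0.47 for Fads1, 0.47 for Fads2, 0.84 for Elovl2 and 0.43 for Elovl5, with no member called. DESeq2 without that mouse called 1 member, Fads1, at 0.47 (adjusted p = 0.034), where 3.27% of genes were called higher. This DESeq2 fit was added after values were seen. The mouse it leaves out was itself the lowest in Fads1 (152 CPM), so the call is not independent of that choice.

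Of the 9 members, Elovl3 had the largest difference between CLP+DCA and CLP, -1.07 on the log2 scale (standard error 0.42, edgeR's adjusted p = 0.442). The CLP mean was 45.9 ± 27.4 CPM and the CLP+DCA mean 21.9 ± 6.996 CPM (SD, n = 4 each). Without CLP replicate 2, the highest mouse, the log2 fold change was -0.60. Fads6 was at -0.24 (standard error 0.24), Elovl1 at -0.12 (standard error 0.10) and Elovl7 at 0.17 (standard error 0.51).

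**Figure D4:**
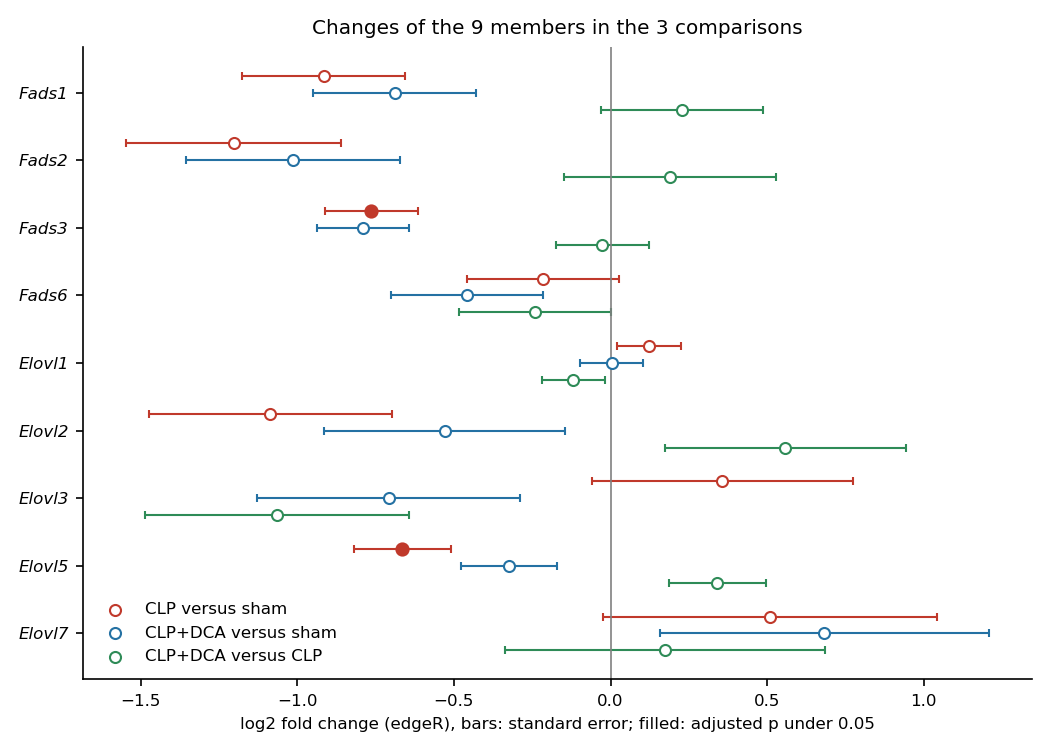
Log2 fold change (x axis) of the 9 members (y axis) in the 3 comparisons, with CLP against sham in red, CLP+DCA against sham in blue and CLP+DCA against CLP in green, from edgeR's fit of all 12 mice, with bars of 1 standard error. Filled points have an adjusted p under 0.05, which holds for Fads3 and Elovl5 in CLP versus sham only.

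The genes whose pattern over the 12 mice was most like that of a member were found by the root mean square difference of log2 CPM, each centred on its mean, among genes of at least 5 CPM on average. Among the members themselves, Fads1 and Fads2 were the most alike (0.26), followed by Fads3 and Elovl5 (0.27) and by Fads1 and Elovl2 (0.30). Nearest to Fads2 was Acss2, which makes acetyl-CoA from acetate, at a difference of 0.15, where the spread of Fads2 itself was 0.76. Nearest to Elovl2 were Serpinf1 (0.14), Maob (0.14) and Mlxipl (0.17), the last encoding the carbohydrate-responsive transcription factor ChREBP.

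Fads1 was nearest to Qdpr, Amdhd1 and Paox (0.09 to 0.11), Fads3 to Gclc, the catalytic subunit of glutathione synthesis, Adh7 and Acsl5 (0.15 to 0.18), and Elovl5 to H2afz, Nop53 and Rnaseh2a (0.09 to 0.10). Elovl3 had no near neighbour: the closest 3 genes were Nsdhl, Dhcr7 and Msmo1, all enzymes of cholesterol synthesis, at 0.46 to 0.52 where the spread of Elovl3 was 0.69. Fads6 was nearest to Abcc2, Ugt1a6b and Sepsecs (0.13 to 0.19), and Elovl1, which varied least, to Spryd4, Mal2 and Rtn3 (0.06 to 0.07). Aldh7a1 and Papss2 completed the neighbours of Fads2 (0.23 and 0.24). These values describe the same 12 libraries, whose depth and composition all genes share.

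Around the members, the other desaturases, elongases and elongation cycle enzymes comprised 14 genes, of which 11 were tested. In CLP versus sham 1 was called lower and none higher, where 1.14% and 1.64% of all genes were, and the median log2 fold change was 0.12. The one called was Scd1, which puts the double bond into oleic acid: it fell by 2.68 on the log2 scale (standard error 0.49, edgeR's adjusted p = 0.0275). Genes of cytochrome b5, its reductases and the acyl-CoA synthetases formed a further list. Of its 9 genes 8 were tested and 7 were at a negative value (median of the list -0.48). Cyb5b was called (-0.70, standard error 0.17, edgeR's adjusted p = 0.0479). Cyb5a (-1.12, standard error 0.45, edgeR's adjusted p = 0.135) and Cyb5r3 (-0.93, standard error 0.24, edgeR's adjusted p = 0.0585) were not. Which of them supplies electrons to the desaturases was not measured.

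Of 17 genes for transcription factors and SREBP processing, Srebf1 fell by 1.94 on the log2 scale (standard error 0.45, edgeR's adjusted p = 0.0475) and Srebf2 rose by 0.68 (standard error 0.11, edgeR's adjusted p = 0.0202). Srebf1 encodes the factor SREBP-1, known to drive Fads1, Fads2 and Elovl5, and Srebf2 encodes SREBP-2, known for cholesterol synthesis. Of 12 lipogenic targets of SREBP-1c and ChREBP, 10 were at a negative value and 2 were called, Thrsp (-2.75, standard error 0.48, edgeR's adjusted p = 0.0255) and Pklr (-0.67, standard error 0.16, edgeR's adjusted p = 0.0479), with a list median of -0.54. Among 10 genes of fatty acid uptake and binding, Fabp5 fell by 2.30 (standard error 0.38, edgeR's adjusted p = 0.0254), and the median was -0.28.

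In 2 further lists edgeR's fit of all 12 mice called no gene, but other fits did. Of 11 genes of peroxisomal chain shortening, which completes docosahexaenoic acid, 8 were at a negative value (median -0.31), with the smallest p for Scp2 (-0.49, standard error 0.18) and Abcd2 (-1.22, standard error 0.53). Of these 11, 3 had an unadjusted p under 0.05, as had 3772 of the 13190 genes tested. Scp2 was called by edgeR on the 8 mice compared, where 2387 of 13079 genes were called. DESeq2 on these mice called 3, among them Scp2 and Abcd2, where 3428 of 14683 genes were. Of 10 tested genes that place polyunsaturated fatty acids into phospholipids, 8 were at a positive value (median 0.25). The smallest p there belonged to Lpcat3, the main acyltransferase for arachidonic acid in liver, at -0.41 (standard error 0.10, edgeR's adjusted p = 0.0527), and to Mboat1, at 1.59 (standard error 0.47). Of these 10, 4 had an unadjusted p under 0.05. On the 8 mice edgeR called 1 (Lpcat3) and DESeq2 2 (Lpcat3 and Agpat3), beside the same numbers of all genes as above.

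Each call named above was lost in 4 (Fabp5) to 9 of the 12 fits that left out 1 mouse, among them those without sham replicate 3 or CLP replicate 4, while the sign stayed. In the other comparisons edgeR called none of the 119 genes tested over all the surrounding lists, where 28 had an unadjusted p under 0.05 in CLP+DCA versus sham and 15 in CLP+DCA versus CLP. DESeq2 on the 8 mice called 10 and 3 of them, Scd1 and Cyb5b among the former and Fabp5 and Thrsp among the latter. Of all genes, it called 169 of 14106 and 80 of 13237. In CLP+DCA versus sham, Scd1 was at -1.56, Srebf1 at -0.82, Thrsp at -0.88, Fabp5 at -0.50, Pklr at -0.36 and Cyb5b at -0.68 on the log2 scale, with edgeR's adjusted p of 0.225 to 0.550. Scd1 had a mean of 2128 ± 963 CPM in sham, 332 ± 245 CPM in CLP and 720 ± 120 CPM in CLP+DCA (SD, n = 4 each). Srebf1 had 336, 87.6 and 191 CPM in the same order.

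**Figure D5:**
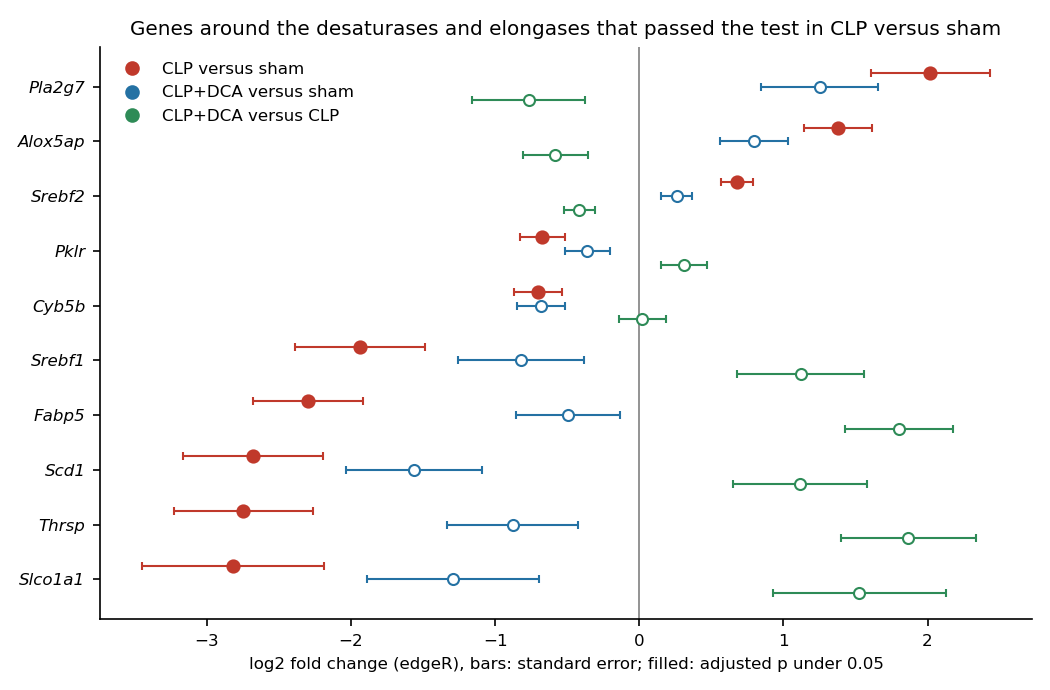
Log2 fold change (x axis) in the 3 comparisons, with CLP against sham in red, CLP+DCA against sham in blue and CLP+DCA against CLP in green, for the 10 genes of the surrounding lists called in CLP versus sham (y axis). Bars are 1 standard error of edgeR's fit of all 12 mice. Filled points have an adjusted p under 0.05, which holds in CLP versus sham only; Pla2g7, Alox5ap and Srebf2 lie above 0 there and the other 7 below.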

How the data were processed

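Each whole liver was measured by RNA-sequencing as 1 library. The authors used STAR 2.5 for alignment to mm10 and Subread 1.5.0-p1 (featureCounts) for counting, per the submitters' processing notes, and deposited raw read counts of 25611 genes, which underlie all values. The gene annotation and strand setting are not given in the sources used here. Samples were grouped by their labels. In R 4.3.3, genes were filtered with filterByExpr (minimum count 10), normalized by TMM and tested with edgeR 4.0.16 (robust quasi-likelihood fit of all 12 mice, Benjamini-Hochberg FDR 0.05 over 13190 genes). The standard error is the log2 fold change divided by the square root of F. Log2 CPM had a prior count of 2. Exon lengths came from GENCODE vM21. DESeq2 1.42.0, voom in limma 3.58.1, other normalizations and filters, a replicate block and leaving out each mouse were alternatives. The scripts' tests were checked on simulated data. All 9 members are named. From each surrounding list the genes past the FDR in any comparison (at most the 4 with the smallest p), or otherwise the 2 with the smallest p in CLP versus sham, are named, and for likeness the 3 nearest genes. Some genes that passed a test or rule, and the nearest genes of Elovl7, are not reported here. The members and lists were chosen with earlier results of these data known, and 3 alternatives, and all alternatives for genes of the surrounding lists, were added after values were seen. Libraries of a group differed by more than sampling noise, so each counts as 1 replicate. Chromosome positions are 1-based.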

Additional observations from a re-analysis of the deposited data

Results flagged for a closer look

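Of the 27 groups of 4 mice formed by 9 members and 3 groups, 1 had a mouse apart from the others by Dixon's criterion: Fads1 in CLP+DCA, where replicate 3 was at 152 CPM and the others at 357 to 418 CPM. On the log2 CPM scale the gap to the nearest mouse was 0.844 of the whole range, above the 95% critical value for 4 mice. Chance would mark about 1 in 20 independent groups, but the 27 groups come from the same 12 libraries and are not independent. Whether the mark exceeds chance was not tested. The same mouse had 35.7% of its reads on acute phase genes and 55.5 CPM on neutrophil markers, and the part of this in its Fads1 value was not tested.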

How the results depend on the processing

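In CLP versus sham, the number of members called (2) was 5 with edgeR on the 8 mice compared, with DESeq2 on 8 or 12 mice and with voom with sample quality weights (which weights libraries as well as changing the method), 4 at an FDR of 0.1, 1 with library size alone or without a filter, and 0 to 5 when 1 mouse was left out. With edgeR on the 8 mice it was 5 without CLP replicate 2 and 3 without CLP replicate 4. The replicate numbers did not pair the mice (1 of 12 same-numbered pairs correlated above 0.1, range -0.46 to 0.55), and with a replicate block 0 members were called. The block left the Fads2/Fads1 and Fads3/Fads2 differences at -0.30 and 0.46 with exact sign-flip p = 0.125, the smallest 4 pairs allow. In CLP+DCA versus sham (0 called), DESeq2 called 1 on 8 or 12 mice and 3 without CLP+DCA replicate 3, and voom 2. In CLP+DCA versus CLP (0 called), weighted voom called 2 (Fads1 and Elovl5) and DESeq2 1 without CLP+DCA replicate 3. With edgeR, leaving out 1 mouse gave 0 in both. Over all genes, 367 were called in CLP versus sham (151 lower, 216 higher), 209 with library size alone (109 lower, 100 higher), 122 without a filter, 46 with the block, 1894 to 3453 with edgeR or DESeq2 on 8 mice, DESeq2 on 12 or voom, 2022 at an FDR of 0.1 and 10 (without sham replicate 3) to 3157 (without CLP+DCA replicate 3) when 1 mouse was left out. In CLP+DCA versus sham 5 were called, and 0 to 541 under the alternatives, and in CLP+DCA versus CLP 1, and 0 to 1341. Of the 10 calls among the surrounding lists in CLP versus sham, Cyb5b, Pklr, Slco1a1 and Srebf1 were lost with library size alone, these and Pla2g7 without a filter, and these, Srebf2 and Thrsp with the replicate block, under which Angptl4 was called. Signs of members turned as follows. Elovl1 in CLP versus sham was -0.061 with library size alone. Elovl3 in that comparison was -0.12 with voom, -0.10 with edgeR on 8 mice without CLP replicate 2, and -0.11 to 0.67 when 1 mouse was left out. Elovl1 in CLP+DCA versus sham, near 0 throughout, was -0.0024 and -0.0040 with DESeq2 on 8 and 12 mice, -0.032 with voom, -0.0033 with RLE, -0.061 with library size alone, -0.0046 without a filter, -0.060 with DESeq2 without CLP+DCA replicate 3, and -0.058 to 0.040 when 1 mouse was left out. In CLP+DCA versus CLP, Elovl7 was -0.31 with voom, -0.44 with DESeq2 without CLP+DCA replicate 3 and -0.46 to 0.57 when 1 mouse was left out. Fads3 there was 0.070 with library size alone and -0.12 to 0.037 when 1 mouse was left out, and Fads2 was -0.089 to 0.47. Leaving out 1 mouse moved the Fads3/Fads2 difference over 0.39 to 0.52 and the Elovl2/Elovl5 difference over -0.67 to -0.31, where the latter had an exact permutation p = 0.0286 without CLP replicate 1. The cause of these turns was not tested. Elovl7 had no value under a filter of 1 CPM and its 5 to 31 reads limit what depth can show.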

Other observations

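Genes that release and oxygenate polyunsaturated fatty acids comprised 18 symbols, of which 14 were tested. In CLP versus sham 7 were at a negative and 7 at a positive log2 fold change (median 0.21), and 2 were called higher, where 1.64% of all genes were. Alox5ap, which presents arachidonic acid to the lipoxygenase of leukotriene synthesis, rose by a log2 fold change of 1.38 (standard error 0.23, edgeR's adjusted p = 0.0254), from 1.55 to 3.99 CPM. Pla2g7, the plasma platelet-activating factor hydrolase of macrophages, rose by 2.02 (standard error 0.41, edgeR's adjusted p = 0.0385), from 2.11 to 8.58 CPM. Summed neutrophil markers moved with them, with 27.9 to 39.97 CPM in CLP and 4.91 to 6.21 CPM in sham. Of 8 tested, 7 were higher and Ly6g was lower. Markers of Kupffer cells and macrophages summed to 194 to 320 CPM in sham and 299 to 386 CPM in CLP. Of these, 9 of 10 were at a positive log2 fold change and none was called. The part of both lists was not tested.

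Among 15 tested targets of PPARalpha, the receptor that senses polyunsaturated fatty acids and drives fat oxidation, edgeR's fit of all 12 mice called none in CLP versus sham. Of these 15, 3 had an unadjusted p under 0.05, as had 3772 of the 13190 genes tested. On the 8 mice compared, edgeR called 2 (Angptl4 and Fgf21), where 2387 of 13079 genes were called. DESeq2 called 3 there (these and Pdk4), where 3428 of 14683 genes were. In CLP versus sham 13 of the 15 were at a positive log2 fold change (median 0.41), where 48.1% of all genes tested were at a negative one (median 0.018). The smallest p belonged to Angptl4 (1.25, standard error 0.30, edgeR's adjusted p = 0.0516) and Pdk4 (4.03, standard error 1.14, edgeR's adjusted p = 0.0695). Pdk4 varied widely within CLP, at 45.4 ± 70.8 CPM (SD, n = 4), and without CLP replicate 3 its log2 fold change was 1.85. In CLP+DCA versus CLP 14 of the 15 were at a negative value (median -0.35), where 48.4% of all genes tested were (median 0.0082). Of 11 male-biased liver genes under growth hormone control, 10 were at a negative value in CLP versus sham (median -0.65). Slco1a1, a hepatocyte uptake transporter, was the one called, where 1.14% of all genes were called lower. It was at -2.82 on the log2 scale (standard error 0.63, edgeR's adjusted p = 0.0444). The calls of Alox5ap, Pla2g7 and Slco1a1 were lost in 6, 8 and 9 of the 12 fits that left out 1 mouse, among them those without sham replicate 3 or CLP replicate 4.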
